A study of Mus musculus with 2 samples.

Results

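Myb binding was described at 9 genes linked to DNA methylation, called DNA methylation genes here. The dioxygenase genes Tet1, Tet2 and Tet3 encode enzymes of its removal. The methyltransferase genes Dnmt1, Dnmt3a and Dnmt3b and the maintenance cofactor gene Uhrf1 serve to write and maintain it. The isocitrate dehydrogenase genes Idh1 and Idh2 encode enzymes that make a compound TET enzymes need. A Myb peak was taken for a gene when its summit, the base of highest signal, lay inside the gene or within 30 kb of it in the GENCODE vM21 annotation of mm10. Of 25793 Myb peaks, 35 met this rule, and none fell in the windows of more than 1 of the 9 genes. The genes were 9 of 21938 annotated protein-coding genes on the chromosomes used. The study asked how p300, a histone acetyltransferase, restrains Tet2-deficient progenitors, and the Myb profile was made to list Myb targets in normal progenitors. The cells were Lin- bone marrow of WT mice, that is, marrow depleted of cells with mature lineage markers, with a purity above 80%. There was 1 library with an antibody against Myb and 1 library with rabbit IgG, and both carry the genotype label WT, with no treatment or age in the labels. In the study's methods, mice called WT were Ep300 fl/fl animals without Cre on a C57BL/6 background that received poly(I:C) as young adults, which is not stated separately for the mice of the Myb libraries. Lin- cells are a mixture of stem and progenitor cells, so no peak can be placed in a particular cell type. With 1 library there is no replicate, no test between conditions was possible, and every interval below covers counting error only. Intervals of folds cover the Myb reads alone, with the IgG background held fixed.

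DNMT3A and DNMT3B add methyl groups to cytosines that carry none, while DNMT1, brought to newly copied DNA by UHRF1, restores methylation after replication. TET enzymes oxidize methylcytosine to hydroxymethylcytosine, a step toward its removal, and need oxoglutarate, which IDH1 makes in the cytoplasm and IDH2 in mitochondria. TET2, DNMT3A, IDH1 and IDH2 are known for recurrent mutations in myeloid neoplasms. Myb is a transcription factor required for definitive hematopoiesis, and it binds DNA words of the type AACNG.

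A Myb hexamer is taken here as AACGG, or AACTG in its place, preceded by C or T, on either strand. The sequences below carry one within 50 bp of a summit, and are shown because each gene group has at least 1 such peak and the letters can be read beside the values given later. Each is the summit base of mm10 with 50 bases on each side, read 5′ to 3′ on the plus strand, with the hexamer in capitals. Where the capitals read CAGTTA or end in GTTG, the hexamer stands on the minus strand.
Tet3 intron, chr6:83395934-83396034: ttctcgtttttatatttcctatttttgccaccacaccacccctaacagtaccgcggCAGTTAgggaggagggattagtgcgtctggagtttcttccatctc
Dnmt1 flank at Ppan, chr9:20888053-20888153: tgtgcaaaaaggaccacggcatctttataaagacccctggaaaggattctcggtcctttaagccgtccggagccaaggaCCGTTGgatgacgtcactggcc
Uhrf1 flank at Plin3, chr17:56289470-56289570: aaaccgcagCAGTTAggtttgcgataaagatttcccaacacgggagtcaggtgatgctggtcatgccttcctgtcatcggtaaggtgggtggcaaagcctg
Idh1 inside, chr1:65177137-65177237: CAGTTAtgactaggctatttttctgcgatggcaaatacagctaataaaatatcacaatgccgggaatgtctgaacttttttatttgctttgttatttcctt
Idh1 internal start, chr1:65178842-65178942: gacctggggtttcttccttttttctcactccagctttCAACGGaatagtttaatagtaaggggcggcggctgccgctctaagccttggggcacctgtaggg
Idh1 promoter, chr1:65186067-65186167: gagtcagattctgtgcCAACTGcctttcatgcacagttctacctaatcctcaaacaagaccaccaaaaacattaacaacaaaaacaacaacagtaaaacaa
Idh2 upstream, chr7:80143472-80143572: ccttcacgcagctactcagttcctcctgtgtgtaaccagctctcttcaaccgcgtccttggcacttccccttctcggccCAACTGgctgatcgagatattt

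Both sequences that follow held no Myb hexamer. They are shown because they are the highest peak inside Dnmt3a and the peak at the Uhrf1 start, and both held the RUNX word TGTGGT, in capitals, which is read by another family of hematopoietic transcription factors.
Dnmt3a intron, chr12:3855964-3856064: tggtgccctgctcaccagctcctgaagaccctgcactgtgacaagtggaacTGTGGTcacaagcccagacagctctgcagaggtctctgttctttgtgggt
Uhrf1 promoter, chr17:56303079-56303179: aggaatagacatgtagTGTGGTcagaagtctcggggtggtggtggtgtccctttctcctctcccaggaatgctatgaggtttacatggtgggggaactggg

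Fold enrichment is the Myb pileup at the summit over the IgG background, with 1 added to each, as the authors' peak caller gave it. The Myb reads and the background behind each value were recovered from the fold and the p-value. The lowest background shared by many peaks was 1.46, which was also that of the highest peaks of Tet3 and Dnmt3a. Over all peaks, fold enrichment ran from 1.79 to 30.9 with a median of 4.51, and the median peak rested on 18 reads. In 7.24% of peaks the q-value was above 0.05, although the study's methods state a limit of q < 0.05. These peaks were kept as deposited. As a check of the labelled cell type, 6 of 6 progenitor genes had a summit in the gene or within 30 kb. The same held for 1 of 6 genes of other tissues and for 62.8% of all protein-coding genes. Within 3 kb of a start site, a summit lay at 5 of 6 progenitor genes (Kit, Gata2, Spi1, Runx1 and Mpo, but not Cd34). This was so for 0 of 6 genes of other tissues and for 39.9% of all protein-coding genes. Binding is not expression, so this describes where the peaks lay and does not measure the cells.

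Myb peaks were found at 8 of the 9 DNA methylation genes, all except Dnmt3b (88.9%, exact interval 51.8% to 99.7%). Over all protein-coding genes, 62.8% had a summit in the gene or within 30 kb. A summit lay within 3 kb of an own start site, called a promoter peak here, in 6 of the 9: Tet2, Tet3, Dnmt1, Dnmt3a, Uhrf1 and Idh1 (66.7%, interval 29.9% to 92.5%, against 39.9% of all protein-coding genes). A summit lay inside the gene in 5 of the 9 (against 35.4%), namely Tet2, Tet3, Dnmt1, Dnmt3a and Idh1. The start site of the gene was the nearest of any gene to at least 1 summit in 5 of the 9 (against 40.3%), namely Tet3, Dnmt1, Dnmt3a, Uhrf1 and Idh1. Both of the latter shares were 55.6% (interval 21.2% to 86.3%). All 4 shares were above the background, and all 4 intervals contained it.

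Of the 35 peaks, 17 lay inside a member gene and 18 in a flank. Promoter peaks of the gene itself made up 13 of the 35 (37.1%, interval 21.5% to 55.1%), and another 13 lay within 3 kb of the start of a different gene alone. The rest were 5 peaks in introns, 2 inside another gene and 2 in intergenic sequence. Of the 13 promoter peaks, 3 also lay within 3 kb of another gene's start (at Tet2, Uhrf1 and Idh1), so 16 of the 35 were at the promoter of a neighbor. Promoter location is common in the whole list, where 13250 of 25793 peaks lay within 3 kb of the start of any protein-coding gene. The closest count for the 35 joins the 13 at an own start and the 13 at the start of a different gene alone. The 13 at an own start cannot be set against the whole list by themselves. The counts for the 35 also take in starts of noncoding genes. Fold enrichment of the 35 peaks ran from 2.82 to 12.6 with a median of 4.72, against 4.51 for all peaks, and 19 of the 35 exceeded the median of all peaks by fold, 17 by q-value and 16 by reads. The q-value was above 0.05 in 2 of them, a peak upstream of Dnmt3a and a peak downstream of Idh2.

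**Figure D1:**
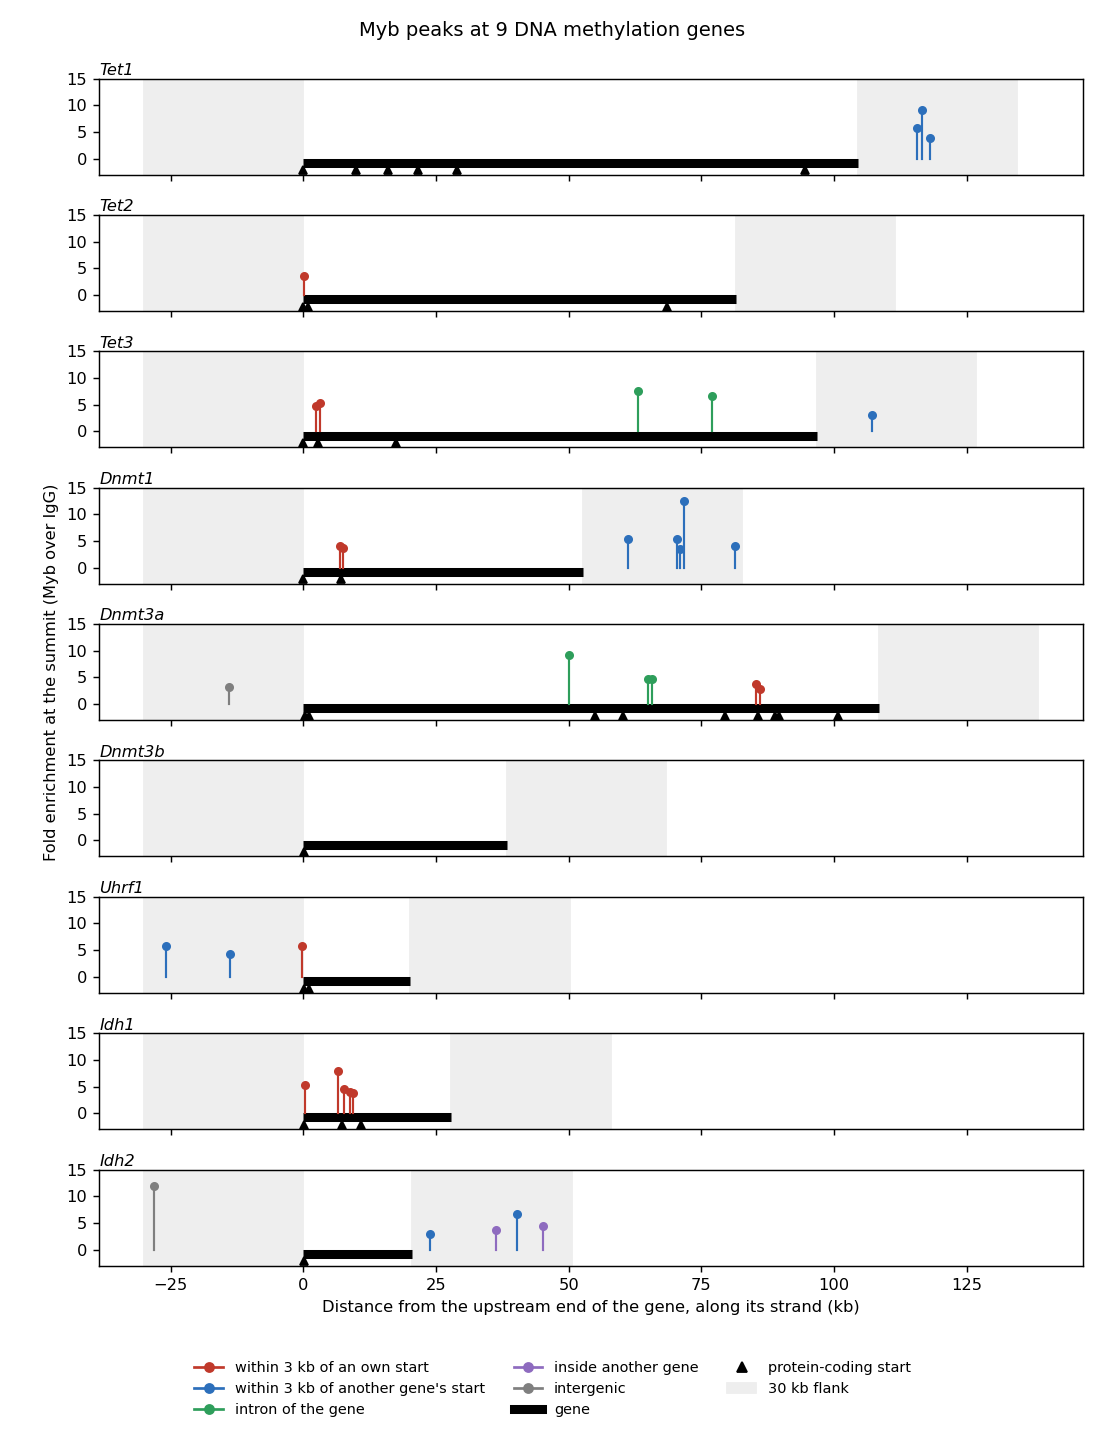
Map of the 35 Myb peaks at the 9 genes, with distance from the upstream end of each gene along its strand on the x axis (kb) and fold enrichment at the summit on the y axis. Black bars are genes, triangles are protein-coding start sites, grey areas are the 30 kb flanks, and colors give the location of each summit: the Tet1 peaks all lie beyond the end of the gene, those of Idh1 all lie inside it, and Dnmt3b has none.

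Among the Tet genes, Tet3 had 5 peaks, Tet1 had 3 and Tet2 had 1, and the highest of them lay outside the promoters of the Tet genes themselves. Tet1 (chromosome 10, 62804570 to 62908996, minus strand) had no summit inside the gene and none within 3 kb of any annotated start, the closest being 21067 bp away. Its 3 peaks lay 11098 to 13565 bp past the end of the gene, all within 3 kb of the start of Ccar1, a cell cycle and apoptosis regulator gene. The highest, at 62792011 to 62792835, had a fold of 9.2 (interval 6.33 to 13) from 30 reads, with its summit 139 bp from the Ccar1 start. Fold was 5.71 (interval 3.54 to 8.81) from 18 reads at 62793335 to 62793632, and 3.82 (interval 2.16 to 6.4) from 12 reads at 62790875 to 62791757. The interval of the lowest overlapped that of the highest only narrowly.

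Tet2 (chromosome 3, 133463679 to 133545139, minus strand), the Tet gene most often mutated in myeloid disease, had 1 peak, at 133544864 to 133545560. It covered the upstream-most start, with the summit in a UTR exon 29 bp inside the gene. Fold was 3.52 (interval 2.16 to 5.49) from 17 reads, with a −log10 q-value of 2.85, below the median of all peaks. The start of the noncoding gene Gm42567 was 13 bp from the same summit, so this peak cannot be told apart between the 2 starts. A stronger peak lay just beyond the window, at 133582881 to 133583811, with its summit 38.1 kb upstream of Tet2, a fold of 11.7 and 36 reads. Tet2 was the nearest protein-coding gene by start site to that peak, which is not counted among the 35.

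Tet3 (chromosome 6, 83362373 to 83459084, minus strand) carried binding both at a start and within introns. The higher peaks were intronic: fold was 7.59 (interval 4.96 to 11.2) from 23 reads at 83395521 to 83396261, and 6.66 (interval 4.61 to 9.35) from 31 reads at 83381738 to 83382547. The first of these holds the TAACTG hexamer shown above, and the closest annotated start to it was that of the microRNA gene Mir6374, 5118 bp away. A pair of promoter peaks flanked the coding start at 83456392 without covering it, with summits 353 bp upstream and 527 bp downstream. The upstream one, at 83456551 to 83457268, had a fold of 4.72 (interval 2.81 to 7.54) from 15 reads, and the downstream one, at 83455363 to 83456058, a fold of 5.35 (interval 3.32 to 8.25) from 18 reads. From the group of starts at 83441632 to 83441678, the nearest summit was 14187 bp away. The remaining peak, with a fold of 3.12 from 19 reads, was 89 bp from the start of Bola3, an iron-sulfur cluster assembly gene.

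Among the Dnmt genes, Dnmt1 had 7 peaks, Dnmt3a had 6 and Dnmt3b had none, so that the gene for the maintenance enzyme and 1 of the 2 genes for de novo enzymes carried Myb peaks. Dnmt1 (chromosome 9, 20907209 to 20959888, minus strand) had the highest peak of all 9 genes in its window, but that peak lay 19106 bp past the end of the gene, 72 bp from the start of Ppan, a ribosome biogenesis gene. It spanned 20887754 to 20888476, with a fold of 12.6 (interval 9.41 to 16.7) from 48 reads and a −log10 q-value of 28.4, and its window holds the CAACGG hexamer shown above. The peaks at the Dnmt1 promoter were lower. At 20952848 to 20953433 a peak covered the coding start at 20952979, with a fold of 4.17 (interval 2.48 to 6.66) from 15 reads, and at 20952286 to 20952542 a peak lay 132 bp inside the nearest start with a fold of 3.74 (interval 2.19 to 6.06) from 14 reads. The interval of the Ppan peak lay above both, with the IgG background of each peak held fixed. From the upstream-most start, at 20959888, the nearest summit was 6846 bp away. The other 4 flank peaks were also at starts of other genes. The peak at the translation initiation factor gene Eif3g, at 20898383 to 20898852, had a fold of 5.44 (interval 3.67 to 7.81) from 27 reads, and that at the small nucleolar RNA gene Gm24067, at 20889270 to 20889894, a fold of 5.32 (interval 3.3 to 8.19) from 18 reads. Those at Ppan and Angptl6 had folds of 3.43 and 4.1.

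Dnmt3a (chromosome 12, 3806007 to 3914443, plus strand) was bound mostly inside the gene, with 5 of its 6 peaks there, and not at its upstream starts. The highest, in an intron at 3855541 to 3856205, had a fold of 9.15 (interval 6.22 to 13) from 28 reads and a −log10 q-value of 14.4, and its summit was 5007 bp upstream of an internal coding start. Another pair of intronic peaks rested on 14 reads each, with a fold of 4.78 (interval 2.8 to 7.74) at 3870841 to 3871195 and of 4.74 (interval 2.78 to 7.69) at 3871584 to 3871916. Promoter peaks flanked the internal coding starts at 3891728 to 3891744, from which shorter transcripts begin, without covering them. The upstream one, at 3890901 to 3891619, had a fold of 3.71 (interval 2.3 to 5.72) from 18 reads, and the downstream one, at 3891873 to 3892229, had a fold of 2.82 (interval 1.72 to 4.39) from 17 reads, the lowest of the 35. At the starts from 3806007 to 3807160, the nearest summit was 14002 bp away, in a peak with a fold of 3.15 from 11 reads and a −log10 q-value of 1.26, which is a q-value above 0.05.

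Dnmt3b (chromosome 2, 153649450 to 153687730, plus strand) had no summit in its window of 98.3 kb, where the count of 0 allows up to 3.69 peaks (exact interval). The nearest summit lay 38366 bp upstream with a fold of 9.33 from 38 reads, and the closest protein-coding start to it was that of Commd7. At this depth and with 1 library, a peak below the calling threshold would not have been listed.

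Uhrf1 (chromosome 17, 56303321 to 56323486, plus strand), whose product recognizes hemimethylated DNA and recruits DNMT1, had 3 peaks, all upstream of the gene body. Its promoter peak at 56302957 to 56304135 was broad and covered the start, with the summit 192 bp upstream, a fold of 5.85 (interval 3.79 to 8.68) from 22 reads and a −log10 q-value of 6.95. A start of Arrdc5 lies within 3 kb of the same summit, so the peak is shared by both promoters. The other 2 peaks were at the promoters of Ticam1, an adaptor of innate immune signaling (56276908 to 56277506, fold 5.83, interval 3.7 to 8.8, 20 reads), and Plin3, a lipid droplet protein gene (56289215 to 56290001, fold 4.37, interval 2.8 to 6.55, 21 reads). The intervals of the 3 peaks overlapped, and each held a RUNX word.

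The Idh genes had 5 peaks each but differed in where these lay: every Idh1 peak was a promoter peak inside Idh1, and no Idh2 peak was inside Idh2 or at its promoter. Idh1 (chromosome 1, 65158616 to 65186500, minus strand) has 3 groups of coding starts, and each had a summit within 3 kb. The highest peak, at 65179400 to 65180594, was 748 bp upstream of the internal start at 65179181 and had a fold of 7.85 (interval 5.21 to 11.4) from 25 reads and a −log10 q-value of 11.6. The peak at the upstream starts, at 65185796 to 65186446, covered a start and had a fold of 5.2 (interval 3.14 to 8.2) from 16 reads. A start of the lipid kinase gene Pikfyve lay within 3 kb of that summit. The peak at 65178711 to 65179027, 289 bp from the internal start, had a fold of 4.6 (interval 2.95 to 6.89) from 21 reads. Farther inside, fold was 4 (interval 2.25 to 6.69) at 65177523 to 65177880 and 3.71 (interval 2.09 to 6.22) at 65177018 to 65177406, from 12 reads each. Their summits were 1464 and 1623 bp from the nearest internal coding starts, so both are promoter peaks at a distance of 3 kb but not at 1 kb. All 5 intervals overlapped.

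Idh2 (chromosome 7, 80094846 to 80115392, minus strand) had its nearest summit 23786 bp from its coding starts. Its highest peak, at 80143257 to 80144465, lay in intergenic sequence 28130 bp upstream, with a fold of 11.9 (interval 8.82 to 15.7) from 47 reads and a −log10 q-value of 27.6. It was the widest of the 35 peaks, at 1209 bp, and holds the CAACTG hexamer shown above. Idh2 was the nearest protein-coding gene by start site, although the noncoding gene Gm45202 starts closer, at 11647 bp. The other 4 peaks lay past the end of Idh2 inside Zfp710, a zinc finger gene. The highest of these, at 80074834 to 80075677, had a fold of 6.6 (interval 4.51 to 9.35) from 29 reads and was 104 bp from the start of Gm21057, and the next, at 80070088 to 80070348, had a fold of 4.42 (interval 2.67 to 6.98) from 16 reads. The rest had folds of 3.74 and 2.96. The lowest rested on 9 reads with a −log10 q-value of 0.578, a q-value above 0.05. The 30 kb limit decides some of these: the peaks just inside it were that 28130 bp upstream of Idh2 and the Angptl6 peak 28573 bp past Dnmt1, and the next outside was 30666 bp upstream of Idh2 with a fold of 4.85.

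**Figure D2:**
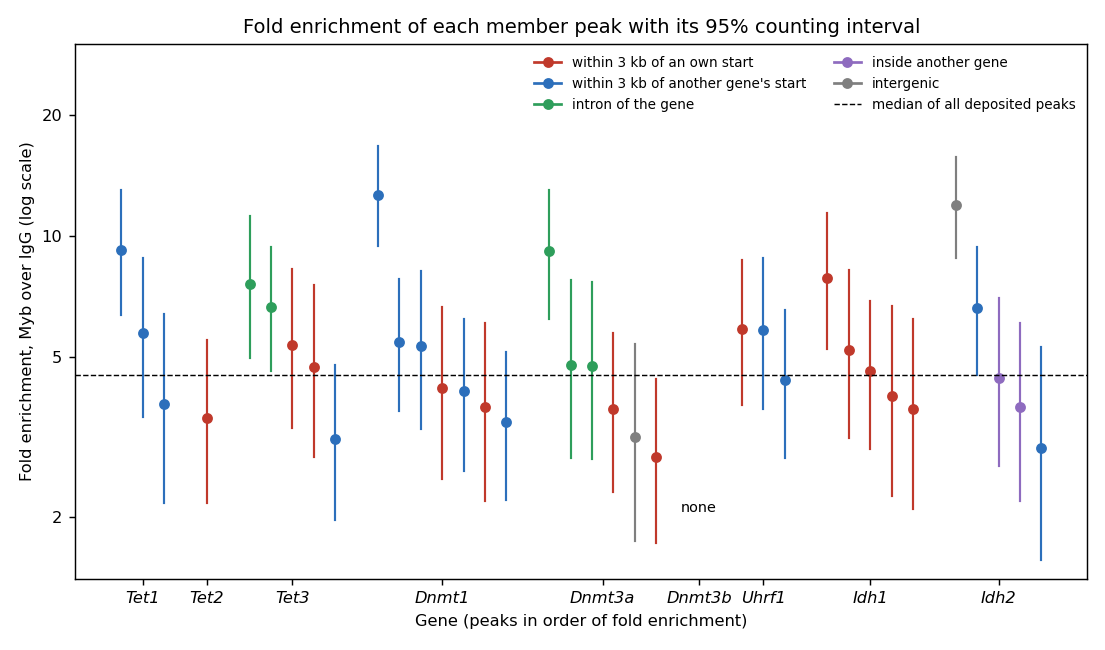
Fold enrichment of each of the 35 peaks over IgG (log scale) with its exact Poisson interval on the Myb reads, grouped by gene and ordered by fold, with colors for location and a dashed line at the median of all deposited peaks, 4.51. The Ppan peak near Dnmt1 (12.6) and the intergenic peak near Idh2 (11.9) stand highest, and promoter peaks of the genes themselves reach 7.85 at Idh1.

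Ordered by their highest peak, the genes ran from Dnmt1 (12.6) through Idh2 (11.9), Tet1 (9.2), Dnmt3a (9.15), Idh1 (7.85), Tet3 (7.59) and Uhrf1 (5.85) to Tet2 (3.52). Neighbors in this order had overlapping intervals, while the intervals of the Dnmt1 and Idh2 peaks, from 9.41 and 8.82, lay above those of Uhrf1, up to 8.68, and Tet2, up to 5.49. These intervals hold the IgG background fixed, at 2 for Dnmt1, 2.13 for Idh2, 2.07 for Uhrf1 and 3 for Tet2. They leave out its counting error, so the narrow gaps to Uhrf1 cannot be read as a separation. For 2 of the first 3 genes, Dnmt1 and Tet1, the highest peak was at the promoter of a different gene. Ordered by promoter peaks alone, Idh1 came first (7.85), followed by Uhrf1 (5.85), Tet3 (5.35), Dnmt1 (4.17), Dnmt3a (3.71) and Tet2 (3.52), and all 6 intervals overlapped. The 13 promoter peaks had a median fold of 4.17 and a median of 17 reads, against 5.32 and 20 reads for the 13 peaks at promoters of other genes and 4.78 and 16 reads for the other 9. Their ranges overlapped, from 2.82 to 7.85, from 2.96 to 12.6 and from 3.15 to 11.9. Of the 13 promoter peaks, 4 covered an annotated start (30.8%), at Tet2, Dnmt1, Uhrf1 and Idh1, against 46.9% of the 13250 peaks within 3 kb of any protein-coding start. The coding starts of the 9 genes formed 30 groups when starts within 500 bp were joined, and 12 of these had a summit within 3 kb. The share over the start groups of all genes was not computed, so this count cannot be called high or low.

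By gene group, the Tet genes had 9 peaks, the Dnmt genes 13, Uhrf1 3 and the Idh genes 10, in windows of 463, 379, 80.2 and 168 kb. Per 100 kb of gene and flanks, this was 1.95 peaks for the Tet genes (interval 0.89 to 3.69), 3.43 for the Dnmt genes (interval 1.82 to 5.86), 3.74 for Uhrf1 (interval 0.772 to 10.9) and 5.94 for the Idh genes (interval 2.85 to 10.9). The intervals of all 4 overlapped. Over all protein-coding genes the pooled density was 2.18, which lay inside the intervals of the Tet genes, the Dnmt genes and Uhrf1 and below that of the Idh genes. Among the Idh genes, however, 5 of the 10 peaks lay nearest to the start of another gene. Peaks came in clusters, with another summit within 2 kb for 18 of the 35 (39% of all peaks), so counting intervals that treat them as separate are too narrow. Per gene, density was highest at Dnmt1 and Idh2 (6.21 each) and lowest, apart from Dnmt3b, at Tet2 (0.707), against a median of 1.38 over protein-coding genes. Median fold was 5.35 for the Tet genes, 4.17 for the Dnmt genes, 5.83 for Uhrf1 and 4.51 for the Idh genes, with ranges of 3.12 to 9.2, 2.82 to 12.6, 4.37 to 5.85 and 2.96 to 11.9, so the groups did not separate by strength.

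**Figure D3:**
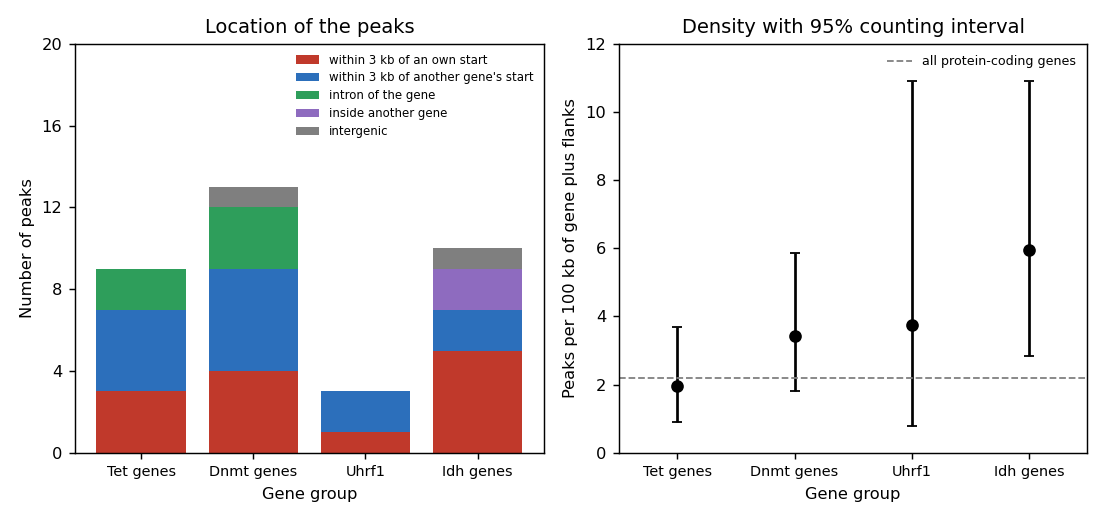
Left, number of Myb peaks per gene group, stacked by location of the summit; right, peaks per 100 kb of gene plus flanks (points) with exact 95% Poisson intervals (bars) and the pooled value of all protein-coding genes, 2.18 (dashed line). Promoter peaks of the genes themselves are 3 of 9 in the Tet group, 4 of 13 in the Dnmt group, 1 of 3 at Uhrf1 and 5 of 10 in the Idh group, and the 4 density intervals overlap.

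A Myb hexamer lay within 50 bp of the summit in 8 of the 35 peaks (22.9%, exact interval 10.4% to 40.1%), against 16.7% of all peaks, a value inside that interval. Within 25 bp the order turned, with 8.57% against 8.68%. The 8 peaks were 3 peaks of Idh1, 2 of Idh2 and 1 each of Tet3, Dnmt1 and Uhrf1, so the Idh genes held 5 of the 8. Of the 2 Idh2 peaks, 1 is the peak on 9 reads with a q-value above 0.05, and its sequence is not shown above. The hexamers in the Tet, Dnmt and Uhrf1 groups were at a Tet3 intron and at the promoters of Ppan and Plin3, and no promoter peak of Tet2, Tet3, Dnmt1, Dnmt3a or Uhrf1 itself had one. All 3 promoter peaks with a hexamer were at Idh1 and are among the sequences shown above. The absence of a hexamer says only that these letters are not in the window. The same windows were searched on both strands for words of other families. ETS words (GGAAG preceded by A or C) were found in 9 of the 35 (25.7%, against 20.4% of all peaks), RUNX words (TGTGGT, or the same with C as the third letter) in 8 (22.9%, interval 10.4% to 40.1%, against 12.2%), and GATA words (GATAA preceded by A or T) in 4 (11.4%, against 13.8%). The NFY word CCAAT was found in 2 (5.71%, against 11.1%). The interval of the RUNX share contained the 12.2% of all peaks. Of the other families searched, E-box words were found in 14.3% (against 14.2%), SP/KLF words in 8.57% (against 7.96%) and CEBP words in 8.57% (against 6.16%). IRF words were found in 5.71% (against 3.63%), AP-1 words in 2.86% (against 1.93%), and NRF1 and E2F words in none. No Myb hexamer contains a word of these families, but words can share letters where they adjoin, and the Myb and RUNX words stood together at the Tet3 intron and the Plin3 promoter. Summit windows of the 35 peaks had a median GC content of 53.5% (range 32.7% to 77.2%) and a median of 3 CpG sites, against 48.5% and 2 for all peaks. The Tet group had the highest median GC content, 62.4%, and the Idh group the lowest, 51%.

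In the RefSeq promoter set of the same build (GRCm38.p6, from 250 bases before to 50 after each start), all 9 genes were matched, with 15 starts. Of these 15 promoters, 8, from 5 genes, had a summit within 3 kb, a count for which the share over all promoters was not computed. The gene with a promoter peak above and none here is Tet3, whose RefSeq start is 14187 bp from a summit, so its promoter peaks rest on starts in GENCODE. The median GC content of the 15 was 68.3%, against 52.7% for 32851 promoters, and the median ratio of observed to expected CpG was 0.694, against 0.384. Thus these genes linked to DNA methylation have mostly CpG-rich promoters themselves, although the ratio ran from 0.101 to 1.17 between starts. A Myb hexamer was present in 7 of the 15, against 28.3% of all promoters of that length. The promoters of Dnmt3a overlap in part, so the 15 are not separate sequences.

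Other genes of the DNA methylation pathway were read the same way. Of 68 genes in 7 roles, 59 had a peak within 30 kb (86.8%) and 50 had a promoter peak (73.5%), against 62.8% and 39.9% of all protein-coding genes. Promoter peaks were found at 10 of 11 genes of oxoglutarate and hydroxyglutarate metabolism, highest at Idh3a, a subunit of the NAD-dependent isocitrate dehydrogenase (fold 7.77 from 29 reads). Sdha had none. They were found at 8 of 9 genes of methyl donor metabolism, highest at Mat2a, which makes S-adenosylmethionine (fold 13.4 from 55 reads), and at 8 of 9 readers of methylated CpG, highest at Mbd6 (fold 15 from 64 reads), where the nearest start was that of Gm4189. Of 6 genes for proteins that bind CpG islands, 5 had one, highest at the histone methyltransferase gene Kmt2a (fold 8.69 from 32 reads), where another annotated start was nearer than that of Kmt2a, 737 bp away. Among the enzymes described above, 2 of 3 Tet, 2 of 3 Dnmt and 1 of 2 Idh genes had one.

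The share was lower in the remaining roles. Promoter peaks were found at 9 of 14 genes of base removal and excision repair, highest at Gadd45g (fold 10.7 from 42 reads) and with a fold of 4.25 from 15 reads at Tdg, the glycosylase that excises oxidized methylcytosine. They were found at 6 of 10 genes of other methyltransferases and partners, highest at Trim28, a corepressor that recruits silencing factors (fold 11.4 from 43 reads), with Uhrf2, the paralog of Uhrf1, at a fold of 8.36 from 53 reads. In a list of genes linked to Tet proteins, 4 of 9 had one, highest at Spi1, which encodes the hematopoietic factor PU.1 (fold 14.8 from 59 reads). That list also holds Gadd45gip1, whose link to Tet proteins is not established. Genes with no promoter peak included Dnmt3l, Hells, Dppa3 and Cxxc4. The pathway lists were assembled by hand, and no test of their share was made.

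**Figure D4:**
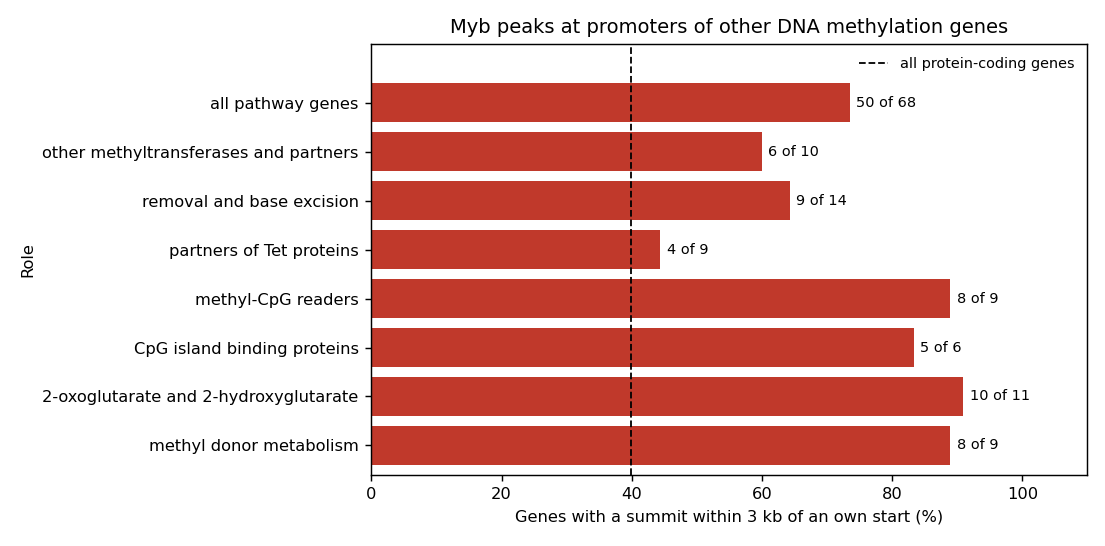
Share of genes with a Myb summit within 3 kb of an own start (x axis, %) in each role of the DNA methylation pathway outside the 9 genes, with the number of genes beside each bar and a dashed line at the share of all protein-coding genes, 39.9%. Shares run from 4 of 9 genes linked to Tet proteins to 10 of 11 genes of oxoglutarate and hydroxyglutarate metabolism.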

How the data were processed

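The 2 samples, grouped by their titles, were 1 Myb and 1 IgG library of WT Lin- bone marrow cells, and the list of Myb peaks was the file analysed. Chromatin was sheared by 14 sonication cycles, tagged by Tn5 transposase on the beads and amplified for 12 PCR cycles, and reads were single-end. The authors trimmed the reads (cutadapt 1.15), aligned them to mm10 (BWA 0.7.13), removed duplicates (Picard) and called narrow peaks against IgG (MACS2 2.1.1.20160309), keeping calls shared by pseudo-replicates, which are random subsets of 1 library. The deposited list gives peak positions, a fold enrichment (a ratio of pileup to background at the summit, with 1 added to each), p-values and q-values as −log10, and a score. The deposited score was 10 times the −log10 p-value, rounded down, and was not used. Read depth is not in the list. The Myb reads at each summit were recovered from fold and p-value with a pileup scale of 0.7695 (whole reads in 100% of rows within 0.005; more than 1 match in 2.24%).

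Summits were assigned to GENCODE vM21 genes with Python 3.11.15, pandas 2.3.3 and SciPy 1.17.1. The recovery of reads was tested on simulated data. Coordinates are mm10, 1-based. Intervals are exact 95% Poisson intervals for reads, folds and densities and exact (Clopper-Pearson) 95% intervals for shares. The background was held fixed, and PCR reads without molecular identifiers and neighboring peaks are not independent, so they cover counting error only. No p-value was computed, since peaks are not replicates.

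All 35 peaks were accounted for. Named in full were the 3 highest peaks of each gene and every peak within 3 kb of an own start, any gene whose start was nearest to these, and the gene with the highest promoter peak in each pathway role. The peak upstream of Tet2, other genes beside flank peaks, and Tdg, Uhrf2 and the pathway genes without a promoter peak were named after their values were seen. The 9 genes, the lists and the motifs were chosen with earlier results of these data known. Alternatives covered the window, the promoter distance, the q-value, the assignment of peaks and the motif. A list of mature lineage genes is not reported here.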

Additional observations from a re-analysis of the deposited data

How the results depend on the processing

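Of 65 alternative settings over all results, 33 moved a count by over 1.5 times or a share outside its exact interval, and 32 did not. Among the latter, the share of peaks above the median of all peaks, 54.3% by fold, was 48.6% by q-value and 45.7% by reads, so it crossed an even split. The 35 peaks of the 9 genes became 17 with the gene body alone, 18 with a window of 3 kb, 20 with 10 kb, 16 when the −log10 q-value had to reach 5, 15 when the nearest start of any gene had to be that of the gene, and 21 when this was asked of protein-coding starts. In the same order, the 9 Tet peaks became 5, 5, 5, 5, 2 and 3, and rose to 15 with a window of 50 kb. The 13 Dnmt peaks became 7, 7, 8, 4, 7 and 7. The 3 Uhrf1 peaks became 0 with the gene body alone and 1 with windows of 3 and 10 kb and under both nearest-start rules. The 10 Idh peaks became 5 with the gene body alone, with 3 kb, with the stricter q-value and by the nearest start of any gene, and 6 with 10 kb. The 6 genes with a promoter peak were the same genes with promoter distances of 1 kb and 500 bp and with protein-coding transcripts alone, but the limit of 5 on the −log10 q-value left 3 (Tet3, Uhrf1 and Idh1), and it left 29 of the 50 pathway genes with one. Only 11128 of all 25793 peaks reach that limit. The share of all protein-coding genes at it was not computed, so these 2 counts cannot be set against the background of the full list. The Myb motif share of 22.9% became 57.1% with AACNG (54.3% of all peaks) and 8.57% within 25 bp (8.68% of all peaks), where it was no longer the higher of the 2 shares. No paired analysis was possible because the result comes from no test and each group has 1 library. With 9 to 48 reads a peak, the fold of a peak is known only within wide intervals, and a bound site below the calling threshold would be missing from the list.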
